A study of Mus musculus with 22 samples.

Results

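The NR4A family consists of 3 orphan nuclear receptors, Nr4a1 (Nur77), Nr4a2 (Nurr1) and Nr4a3 (Nor1), and each was found by its symbol as a row of the count table, 3 of 52327 genes. Bulk RNA-seq was done on FAC-sorted β-cells, the insulin-producing cells of the islet, of 3-month-old males on a mixed background, with 1 library from each of 22 mice. Every mouse, controls included, carried diphtheria toxin receptor transgenes labelled GluDTR+, SstDTR htz and PpyDTR htz, named for glucagon, somatostatin and pancreatic polypeptide, the hormones of islet α-, δ- and γ-cells. The 4 groups were mice given diphtheria toxin (DT) that fasted for 8 h and were then refed for 2 h (refed DT, n = 6), control mice on the same schedule (refed control, n = 5), DT mice taken after the 8 h fast (fasted DT, n = 6) and control mice taken after it (fasted control, n = 5). The DT groups were studied 1 month after ablation. The labels do not state what control mice were injected with, so each DT against control value sets toxin-treated mice against controls of unstated treatment. The mice are numbered 1 to 22, and each number occurs once. Fasted mice hold numbers 1 to 11 and refed mice 12 to 22. A difference that followed the numbering therefore cannot be told apart from feeding.

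NR4A receptors act without a hormone that has to bind them: their ligand pocket is filled by the protein's own side chains, so their activity follows mainly from how much of them is made. Their genes are immediate-early genes, which are transcribed within minutes of a stimulus through factors already present in the cell, among them the cAMP-responsive factor CREB, calcium-controlled MEF2 and NFAT, and the ERK-controlled serum response factor. The proteins bind the DNA element NBRE as monomers, and Nr4a1 and Nr4a2 also pair with RXR receptors. In cultured rat β-cells, Nr4a1 and Nr4a3 have been placed downstream of Nkx6-1 in proliferation, and glucose and cAMP-raising hormones are known inducers of the family in β-cell lines.

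On the mouse genome build GRCm38, Nr4a1 (ENSMUSG00000023034.7) lies on chromosome 15 at 101254269 to 101274795 on the plus strand. Nr4a2 (ENSMUSG00000026826.13) lies on chromosome 2 at 57106830 to 57124003 on the minus strand, and Nr4a3 (ENSMUSG00000028341.9) on chromosome 4 at 48045153 to 48086447 on the plus strand. In the GENCODE M21 annotation their exons cover 3509, 4059 and 5987 bases, and 0 exons of other genes overlap them. The proximal promoters are shown because the 3 genes are known targets of CREB. The sequences are the 250 bases before 1 transcript start per gene, the start that the RefSeq promoter table uses, written 5′ to 3′ on the gene's own strand, at chr15:101266596-101266845 (+), chr2:57124004-57124253 (−) and chr4:48045055-48045304 (+). That start is the outermost RefSeq start of Nr4a2, but it lies 12944 bases inside the outermost RefSeq start of Nr4a1 and 227 bases inside that of Nr4a3, whose windows therefore lie wholly and mostly within the gene as RefSeq bounds it. In GENCODE M21, 2 of the 4 transcripts of Nr4a1 and 2 of the 6 of Nr4a2 start within 50 bases of the start used, whereas the nearest GENCODE start of Nr4a3 is 74 bases before it. Capitals mark the 5-base core of the cAMP response element (CRE), TGACG, on either strand, so that a match on the opposite strand reads CGTCA:
Nr4a1: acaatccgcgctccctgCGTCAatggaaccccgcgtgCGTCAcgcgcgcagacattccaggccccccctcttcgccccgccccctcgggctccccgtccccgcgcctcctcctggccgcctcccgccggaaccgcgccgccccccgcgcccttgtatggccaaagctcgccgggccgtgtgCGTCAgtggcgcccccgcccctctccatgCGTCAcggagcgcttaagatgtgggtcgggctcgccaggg
Nr4a2: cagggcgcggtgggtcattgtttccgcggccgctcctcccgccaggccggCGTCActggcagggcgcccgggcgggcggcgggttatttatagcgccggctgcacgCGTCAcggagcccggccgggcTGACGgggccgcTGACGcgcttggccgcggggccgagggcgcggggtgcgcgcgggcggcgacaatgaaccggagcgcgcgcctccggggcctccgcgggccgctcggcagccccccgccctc
Nr4a3: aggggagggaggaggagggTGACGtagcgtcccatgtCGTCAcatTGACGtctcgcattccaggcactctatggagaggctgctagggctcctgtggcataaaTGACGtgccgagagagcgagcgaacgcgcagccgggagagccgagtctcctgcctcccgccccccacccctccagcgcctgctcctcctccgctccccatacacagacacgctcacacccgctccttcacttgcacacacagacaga

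Each of the 3 windows held 4 CRE cores. Of the 32851 RefSeq windows of the same length, counted from 250 bases before to 50 bases after the start, 20.8% held at least 1 core and 0.231% (76 windows) held at least 4. The windows of Nr4a1, Nr4a2 and Nr4a3 had 72.3, 81.7 and 64.7% G and C, against a median of 52.7% over all windows, and base composition was not matched in this count. Counted from the start used, the first bases of the cores were at −233, −213, −69 and −40 in Nr4a1. They were at −200, −144, −123 and −111 in Nr4a2, and at −231, −213, −205 and −147 in Nr4a3. These positions hold for the start used only, since each of the 3 genes also has transcript starts elsewhere. A full CRE, TGACGTCA, was in 0 of the 3 windows and in 1.79% of all windows. NBRE, AAAGGTCA, was in 0 of the 3 and in 1.51% of all, and the CArG box bound by serum response factor was in 0 of the 3 and in 1.63%. The window of Nr4a2 alone among the 3 held a MEF2 site, which 3.19% of all windows hold, and a TATA motif (TATAAA, 13.6% of all) that overlaps it. GC boxes (GGGCGG, 35.7% of all) numbered 3, 5 and 1 in the windows of Nr4a1, Nr4a2 and Nr4a3. A match describes letters only, and both strands were searched for every motif.

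**Figure D1:**
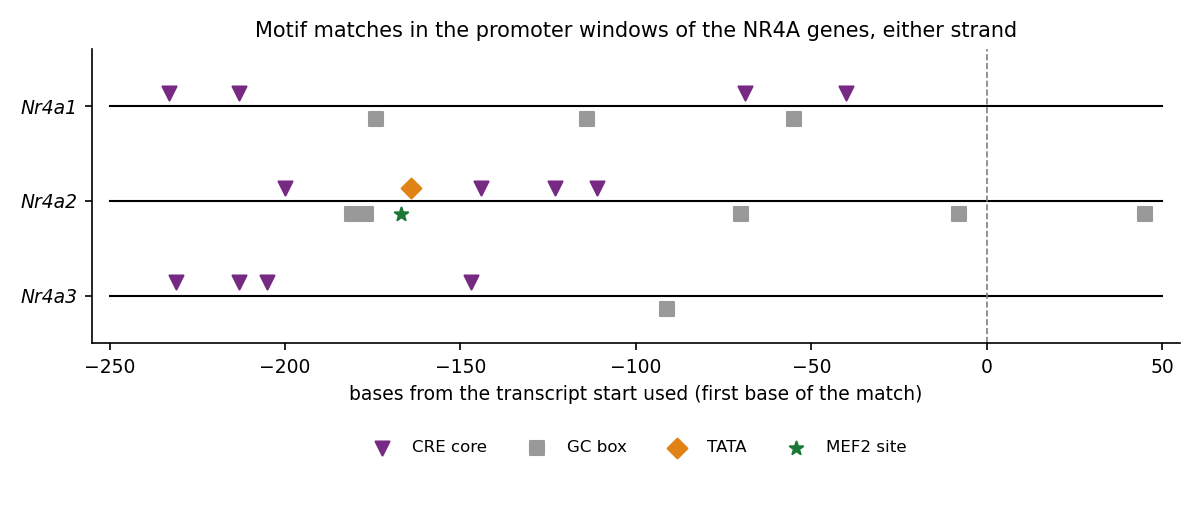
Positions of motif matches on either strand in the promoter windows of Nr4a1, Nr4a2 and Nr4a3, in bases from the transcript start that the RefSeq promoter table uses (dashed line at 0; for Nr4a1 and Nr4a3 it is not the gene's outermost start), with each marker at the first base of a match. Each window has 4 CRE cores (triangles), all at negative positions from the start used, and the MEF2 and TATA matches are in Nr4a2.

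The libraries held 16584117 to 24988880 counts, of which Ins1 and Ins2 took 40.3 to 69.4%. All 10 β-cell markers were detected in every library, the 8 endothelial markers summed to between 3.01 and 10.07 counts per 1000000 (CPM) per library, with Cdh5 at most 0.207 CPM and Esam at 2.41 to 6.61 CPM, and acinar markers summed to between 92.0 and 44907 CPM per library. Refed DT mouse 13 stood apart by its scaling factor, 0.566 against 0.920 to 1.10 in the others, and by its insulin share of 69.4%. Refed DT mouse 20 had the highest immune marker sum, 533 CPM, against a median of 40.8 CPM over all libraries. CPM values below are scaled with edgeR's TMM factors. In bulk RNA, fewer cells expressing a gene and less RNA per cell cannot be told apart.

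Refeeding went with more NR4A RNA in β-cells. Averaged over DT and control mice, Nr4a1 was 2.50 ± 0.45 (SE) above its fasted level in refed mice on the log2 scale and Nr4a2 was 2.57 ± 0.34 above it, with adjusted p = 0.000191 and 4.84e-06 in edgeR's quasi-likelihood test with Benjamini-Hochberg adjustment. In the same comparison, 17.2% of the 14064 genes that passed edgeR's expression filter, called tested genes here, rose and 21.7% fell, and the median change over all of them was −0.06. Both receptors stayed past the threshold of adjusted p 0.05 in 22 of 22 fits that left out 1 mouse each. Nr4a3 did not pass the filter on low counts, so the fit gives it no value, and its counts are described apart.

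Nr4a1 had the highest level of the 3 per kb of exon in all 22 mice. In refed DT mice it stood at 18.8, 63.4, 17.8, 106, 65.7 and 142 CPM in mice 13, 14, 15, 16, 17 and 20. In refed control mice it stood at 17.8, 140, 33.2, 31.1 and 64.5 CPM in mice 12, 18, 19, 21 and 22. In fasted DT mice it stood at 5.51, 4.58, 2.86, 8.07, 7.18 and 12.05 CPM in mice 6 to 11, and in fasted control mice at 9.35, 49.997, 9.71, 13.6 and 8.67 CPM in mice 1 to 5. All 6 refed DT mice were above all 6 fasted DT mice, and the share of all tested genes that separate in this way was not counted. Among controls the groups overlapped: fasted control mouse 2, at 49.997 CPM, was above 3 of the 5 refed control mice, and a refed control mouse was above a fasted one in 22 of 25 pairs.

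The group means of Nr4a1 were 69.0 ± 48.8 CPM in refed DT mice (SD, n = 6), 57.2 ± 49.1 CPM in refed control mice (n = 5), 6.71 ± 3.21 CPM in fasted DT mice (n = 6) and 18.3 ± 17.8 CPM in fasted control mice (n = 5). In DT mice the fitted refeeding difference was 3.36 ± 0.64 on the log2 scale, 10.2-fold, with adjusted p = 0.000698 by edgeR. In control mice it was 1.65 ± 0.65, 3.14-fold, and missed the threshold with edgeR's adjusted p = 0.0718. Of all tested genes, 10.8% rose and 13.5% fell with refeeding in DT mice, and 10.9% rose and 12.3% fell in control mice. The control value turned on single mice. Without fasted control mouse 2 it was 2.47 with edgeR's adjusted p = 0.00922, and without refed control mouse 12 it was 1.88 with adjusted p = 0.0480. Without refed control mouse 18 it was 1.01. Over the 22 fits that left out 1 mouse each, edgeR's adjusted p ranged from 0.00922 to 0.294, and only 2 fits passed the threshold. DESeq2 gave the control value as 1.67 with adjusted p = 0.0402.

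Nr4a2 varied less between refed mice than Nr4a1, with coefficients of variation of 47.5% in refed DT mice and 40.9% in refed control mice, against 70.7 and 85.9% for Nr4a1. In refed DT mice it stood at 18.6, 15.1, 4.15, 6.69, 11.9 and 10.7 CPM in mice 13, 14, 15, 16, 17 and 20, and in refed control mice at 12.6, 23.9, 10.4, 9.43 and 14.2 CPM in mice 12, 18, 19, 21 and 22. In fasted DT mice it stood at 1.15, 0.952, 1.54, 4.19, 5.29 and 2.39 CPM in mice 6 to 11, and in fasted control mice at 3.13, 1.98, 1.51, 1.42 and 0.4999 CPM in mice 1 to 5. Here it was the control groups that did not overlap, and the share of all tested genes that separate in this way was not counted. In DT mice, refed mouse 15 at 4.15 CPM was below fasted mice 9 and 10, and the refed value was the higher in 34 of 36 pairs.

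The group means of Nr4a2 were 11.2 ± 5.31 CPM in refed DT mice (SD, n = 6), 14.1 ± 5.76 CPM in refed control mice (n = 5), 2.58 ± 1.78 CPM in fasted DT mice (n = 6) and 1.71 ± 0.960 CPM in fasted control mice (n = 5). The refeeding difference was 2.09 ± 0.45 in DT mice and 3.05 ± 0.51 in control mice on the log2 scale, 4.26-fold and 8.27-fold, with adjusted p = 0.00179 and 0.000219 by edgeR. Both values stayed called in 22 of 22 fits with 1 mouse left out.

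Nr4a3 was close to the detection limit. It had 0, 15, 4, 9, 4 and 36 counts in refed DT mice 13, 14, 15, 16, 17 and 20, and 0, 7, 0, 6 and 6 counts in refed control mice 12, 18, 19, 21 and 22. It had 1 count in fasted DT mouse 10 and 0 in the other fasted DT mice, and 0 counts in the 5 fasted control mice. Summed over mice, 68 counts fell in refed DT mice and 19 in refed control mice, against 1 in fasted DT mice and 0 in fasted control mice.

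Over each group's summed counts, Nr4a3 came to 0.578 CPM in refed DT mice (95% exact Poisson interval 0.449 to 0.733), 0.183 CPM in refed control mice (0.110 to 0.286) and 0.00795 CPM in fasted DT mice (0.000201 to 0.0443). The 0 counts of fasted control mice allow up to 0.0284 CPM at 3 counts over the group. Refed DT mouse 20, the library with the immune marker sum of 533 CPM, held 36 of the 68 counts, and without it refed DT mice came to 0.331 CPM (0.227 to 0.468). The pooled ratio of refed to fasted DT mice rests on 1 fasted count: it was 72.7, with a counting interval of 12.6 to 2914, and 41.7 (6.96 to 1697) without mouse 20. The pooled level of refed control mice was 6.44 times the 3-count limit of fasted control mice, a ratio that leaves out the counting error of the refed counts. The intervals given cover counting error only, not the spread between mice. Because the fit had no value for it, Nr4a3 was compared over mice with a two-sided exact permutation test of mean log2(CPM + 1), a test chosen after its counts were seen and adjusted over 4 comparisons. Refed DT mice were 0.525 higher than fasted DT mice on that scale, which understates changes at low values, with exact p = 0.0152 over 924 splits and 0.0606 after adjustment, and with 1 mouse left out the difference ranged from 0.344 without refed DT mouse 20, with adjusted exact p = 0.121, to 0.631 without refed DT mouse 13, with adjusted exact p = 0.0173. Refed control mice were 0.246 higher than fasted control mice, with exact p = 0.167 over 252 splits and 0.333 after adjustment. DESeq2, and edgeR with the low-count filter dropped, gave Nr4a3 an adjusted p under 0.05 for refeeding in both DT and control mice.

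**Figure D2:**
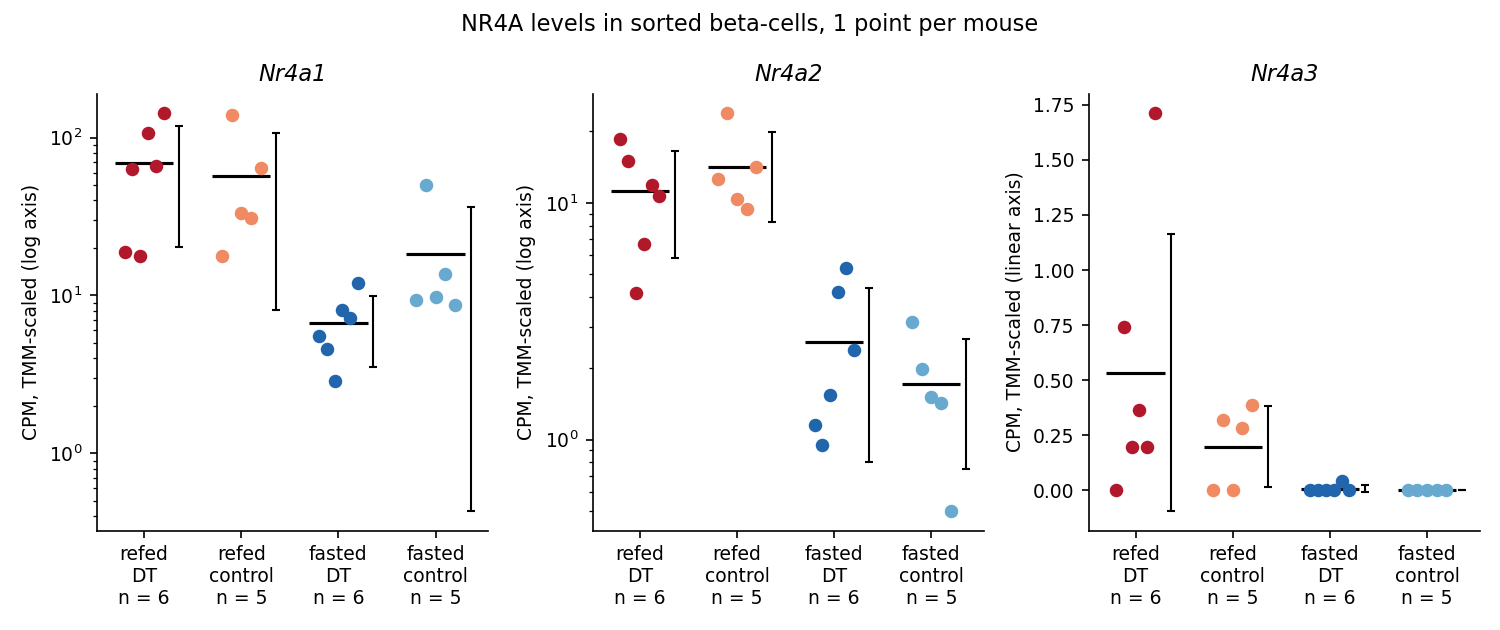
CPM of Nr4a1, Nr4a2 (log axes) and Nr4a3 (linear axis) in each mouse of the 4 groups, with the group mean as a line and the SD as the bar beside it. Refed mice of both kinds sit above most fasted mice, with fasted control mouse 2 at 49.997 CPM of Nr4a1 as the exception among controls, and Nr4a3 near 0 in fasted mice.

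No NR4A gene passed the test between DT and control mice in either feeding state. In refed mice Nr4a1 was 0.27 ± 0.60 and Nr4a2 −0.34 ± 0.44 on the log2 scale in DT against control, with edgeR's adjusted p = 0.919 and 0.843. Without refed DT mouse 20 the Nr4a1 value was −0.07, and without refed control mouse 18 it was 0.92. In fasted mice Nr4a2 was 0.62 ± 0.48 with adjusted p = 0.805, and Nr4a1 was −1.43 ± 0.62 with adjusted p = 0.545 by edgeR. A fasted DT mouse was above a fasted control mouse in Nr4a1 in 3 of 30 pairs, and without fasted control mouse 2 the difference was −0.62. The background was low as well: 0.0284% of all tested genes were called in fasted mice and 0.0356% in refed mice. For Nr4a3, refed DT mice were 0.288 above refed control mice on the log2(CPM + 1) scale, with exact permutation p = 0.316 over 462 splits, or 0.107 above them without refed DT mouse 20, and the fasted groups were both at or under the 3-count limit.

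The refeeding effect of Nr4a1 was the larger in DT mice and that of Nr4a2 the larger in control mice, but neither difference of effects passed the test. The interaction was 1.71 ± 0.87 for Nr4a1, with adjusted p = 0.726, and −0.96 ± 0.65 for Nr4a2, with adjusted p = 0.826 by edgeR, where 0.00711% of all tested genes were called. Averaged over feeding states, the DT difference was −0.58 ± 0.43 for Nr4a1 and 0.14 ± 0.32 for Nr4a2, with adjusted p = 0.645 and 0.911 by edgeR, where 0.206% of genes were called. With 1 mouse left out, the interaction of Nr4a1 ranged from 0.89, without fasted control mouse 2, to 2.35, and that of Nr4a2 from −1.30 to −0.62, the last without fasted DT mouse 10. The averaged Nr4a1 value ranged from −0.75 to −0.17, the last without fasted control mouse 2, and the averaged Nr4a2 value from −0.03, without fasted DT mouse 10, to 0.31. A p that misses the threshold does not show that the groups were alike: by a normal approximation, the 95% interval of the DT difference in refed mice reached from −0.91 to 1.46 for Nr4a1 and from −1.21 to 0.53 for Nr4a2. In fasted mice it reached from −2.65 to −0.22 for Nr4a1 and from −0.32 to 1.55 for Nr4a2. There edgeR's unadjusted p of Nr4a1 was 0.0312, and 8.33% of all tested genes had one under 0.05. The interval of the interaction reached from 0.00 to 3.41 for Nr4a1 and from −2.23 to 0.32 for Nr4a2.

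**Figure D3:**
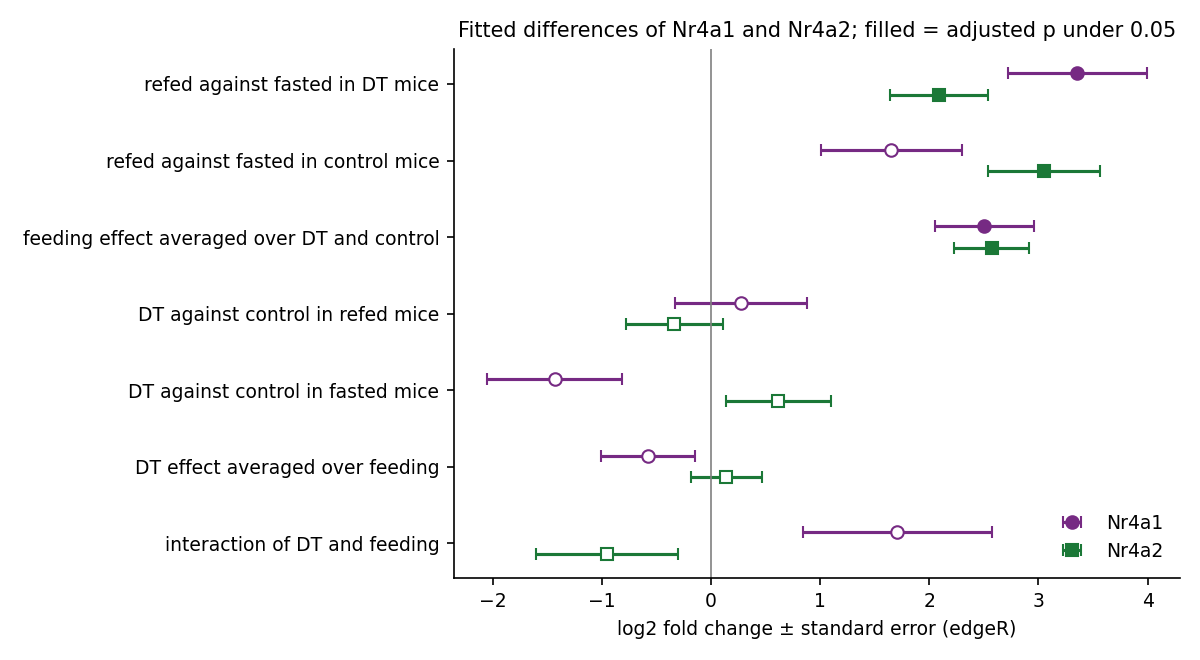
Fitted log2 fold changes of Nr4a1 (circles) and Nr4a2 (squares) with their standard errors in the 7 comparisons, filled where edgeR's adjusted p was under 0.05. The filled symbols are all in refeeding comparisons, between 2.09 and 3.36, and the open ones include Nr4a1 with refeeding in control mice at 1.65.

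The balance within the family was read as CPM per kb of exon, since the genes differ in length. Nr4a1 made up a median of 84.6% of the summed family level in refed DT mice, 78.9% in refed control mice, 76.9% in fasted DT mice and 91.7% in fasted control mice. Nr4a3 made up at most 0.658% in any mouse. The ratio of Nr4a1 to Nr4a2 ranged widely between mice, from 1.17 to 18.4 in refed DT mice, 1.63 to 6.77 in refed control mice, 1.57 to 5.84 in fasted DT mice and 3.45 to 29.2 in fasted control mice. The groups overlapped in this ratio.

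Set among the 49 nuclear receptors by CPM per kb, Nr4a1 moved through the order with feeding. It ranked 2nd in refed DT mice at 19.7 CPM per kb and 2nd in refed control mice at 16.3, but 19th in fasted DT mice at 1.91 and 10th in fasted control mice at 5.21. Without fasted control mouse 2 the fasted control mean was 2.95 CPM per kb and the rank 15th. Nr4a2 ranked 15th in both refed groups, at 2.76 and 3.47 CPM per kb in DT and control mice, and 26th and 27th in fasted DT and fasted control mice, at 0.637 and 0.421. The 3 highest other receptors over all mice were Vdr, the vitamin D receptor, at 27.2 CPM per kb, Nr1d1, the circadian repressor Rev-erbα, at 13.1, and Nr1h2, the oxysterol receptor LXRβ, at 11.7. The SD of Nr4a1 between mice was 13.9 CPM per kb in refed DT mice and 14.01 in refed control mice, so its place among these 3 differs from mouse to mouse.

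**Figure D4:**
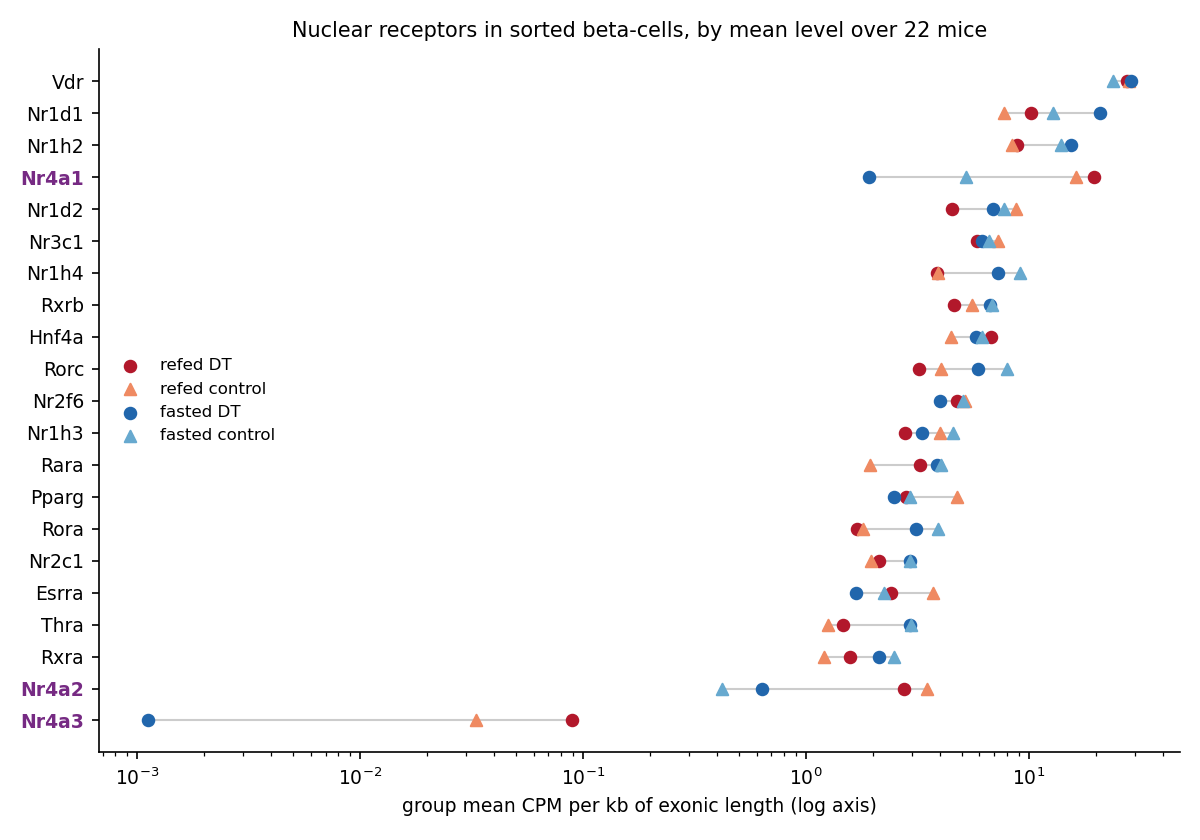
Group mean CPM per kb of exonic length (log axis) for the 20 nuclear receptors with the highest mean over 22 mice, and Nr4a3, with DT mice as circles, control mice as triangles, refed in red shades and fasted in blue shades; Nr4a3 in fasted control mice, at 0, is not drawn. Nr4a1 spans 1.91 to 19.7, while Vdr stays between 23.9 and 28.6.

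More of the other nuclear receptors fell than rose. Of the 46 on the list 30 were tested, and with refeeding 13 fell and 1 rose in the average over DT and control mice. These shares, 43.3% lower and 3.33% higher, stand beside 21.7% and 17.2% of all tested genes. The median change was −0.49, against −0.06 over all tested genes. Rora, a circadian and metabolic receptor, fell by 1.00 ± 0.09 on the log2 scale, with adjusted p = 5.41e-08. The thyroid hormone receptor Thra fell by 1.12 ± 0.13, the bile acid receptor Nr1h4 by 1.06 ± 0.14 and Nr1h2 by 0.77 ± 0.14, with adjusted p = 8.28e-07, 5.21e-06 and 0.000241 by edgeR. The one that rose was Esrra, a regulator of mitochondrial genes, at 0.63 ± 0.24 with adjusted p = 0.0419, named after its value was seen. Among the RXR partners, Rxra fell by 0.74 ± 0.20 with adjusted p = 0.00573, Rxrb was not called, and Rxrg did not pass the filter on low counts.

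Regulators upstream of the NR4A genes were read from lists of the cAMP and CREB, calcium and ERK pathways. Of 20 tested cAMP and CREB genes, 4 rose and 4 fell with refeeding, with a median change of 0.23, and the shares of 20% higher and 20% lower are near the 17.2% and 21.7% of all tested genes. Crem, a CREB relative whose short forms are themselves induced by cAMP, averaged 52.7 ± 17.5 CPM in refed DT mice and 49.9 ± 11.4 in refed control mice, against 9.13 ± 1.59 in fasted DT mice and 12.9 ± 1.29 in fasted control mice (SD), a rise of 2.24 ± 0.16. Sik1, a CREB target kinase that restrains CREB coactivators, averaged 16.8 ± 8.54 and 19.8 ± 12.1 CPM in refed DT and refed control mice, against 0.945 ± 0.490 and 2.58 ± 2.68 in fasted DT and fasted control mice, a rise of 3.54 ± 0.42. Adjusted p was 1.33e-09 for Crem and 1.54e-06 for Sik1 by edgeR. Prkar1a, a regulatory subunit of protein kinase A, rose by 0.61 ± 0.08, and Prkacb, a catalytic subunit, fell by 0.81 ± 0.11.

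Of 23 tested calcium, MEF2 and NFAT genes, 1 rose and 8 fell, with a median change of −0.24. The calcium-controlled kinase Camkk2 fell by 0.90 ± 0.11, the deacetylase Hdac5, a MEF2 repressor, by 1.15 ± 0.15, Mef2a itself by 0.65 ± 0.11 and Nfatc2 by 0.76 ± 0.17. Of 16 tested ERK and serum response factor genes, 1 rose and 5 fell, with a median of −0.11: Mapk3, the kinase ERK1, fell by 0.47 ± 0.07, the downstream kinase Rps6ka5 by 2.10 ± 0.37 and the coactivator Mrtfb by 0.67 ± 0.19, and Map2k1, the kinase MEK1, rose by 0.31 ± 0.09. All named changes passed edgeR's adjusted p of 0.05. These shares, 34.8% of the calcium list and 31.2% of the ERK list lower, stand beside 21.7% lower among all tested genes.

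Other immediate-early genes split in both directions. Of 35 tested, 5 rose and 11 fell with refeeding, with a median of −0.26, so 14.3% rose and 31.4% fell, beside 17.2% and 21.7% of all tested genes. The AP-1 member Fosl2 averaged 8.97 ± 3.09 CPM in refed DT mice and 7.23 ± 4.44 in refed control mice, against 1.49 ± 0.53 in fasted DT mice and 2.18 ± 0.56 in fasted control mice, a rise of 2.15 ± 0.25 with adjusted p = 9.28e-07 by edgeR. Dusp6, a phosphatase that switches off ERK, rose by 1.59 ± 0.31 with adjusted p = 0.000279. The repressor Klf10 fell by 1.03 ± 0.13 and the stress gene Gadd45b by 1.97 ± 0.37, with adjusted p = 2.08e-06 and 0.000277 by edgeR.

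Further members of that list are named after their values were seen, because they are the textbook genes of the class. Egr1 averaged 60.3 ± 28.8 CPM in refed DT mice and 48.9 ± 19.8 in refed control mice, against 129.9 ± 52.4 in fasted DT mice and 116 ± 22.9 in fasted control mice, a fall of 1.18 ± 0.25 with edgeR's adjusted p = 0.000863. Junb, Npas4 and Arc also fell, by 0.86 ± 0.17, 2.33 ± 0.56 and 1.22 ± 0.35. Fos, at −0.45 ± 0.28, and Jun, at −0.19 ± 0.20, were not called. The others that rose were the clock gene Per1, Trib1 and Csrnp1, by 1.16 ± 0.23, 0.66 ± 0.15 and 0.60 ± 0.21. Nr4a1 and Nr4a2 thus stood with Fosl2, Dusp6, Per1, Crem and Sik1 in direction, and opposite to Egr1, Junb, Npas4 and Arc.

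**Figure D5:**
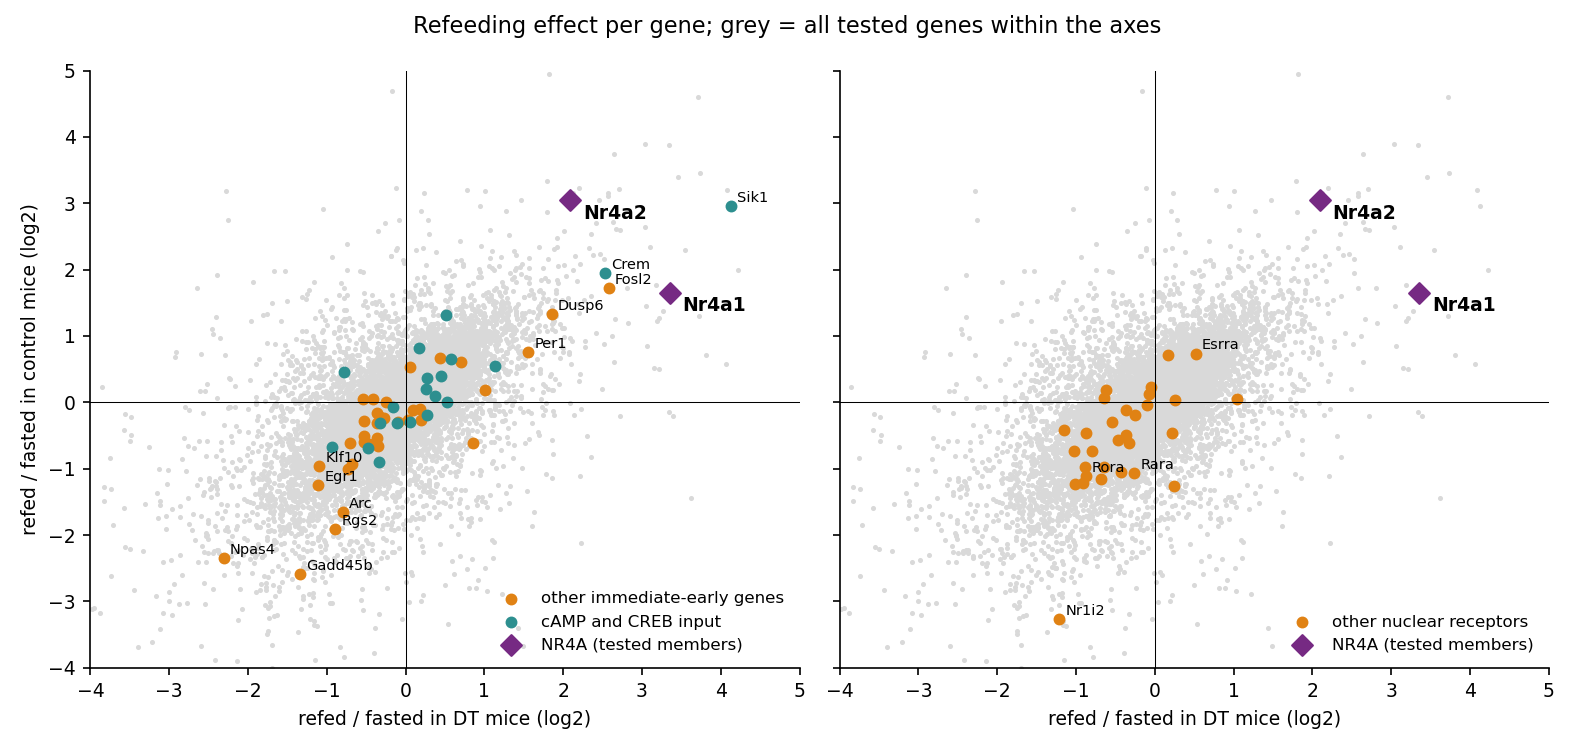
Log2 refeeding difference of each tested gene in DT mice (x axis) and control mice (y axis), which share no samples, with other immediate-early and cAMP genes marked on the left and other nuclear receptors on the right. Nr4a1 at 3.36 and 1.65 and Nr4a2 at 2.09 and 3.05 (diamonds) lie above 0 on both axes, as do Crem, Sik1, Fosl2 and other marked genes. Most marked nuclear receptors lie below 0 on both axes.

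Genes reported to follow NR4A receptors elsewhere were read from lists as well. Of 10 genes linked to NR4A in rat β-cells, 1 rose and 1 fell with refeeding, 10% each, which is below the 17.2% and 21.7% of all tested genes. Wfs1, an endoplasmic reticulum gene, rose by 0.54 ± 0.09 with adjusted p = 5.58e-05, and the cell cycle factor E2f1 fell by 0.80 ± 0.17 with adjusted p = 0.000930 by edgeR. Of 9 tested metabolic genes linked to NR4A in liver and muscle, 1 rose and 4 fell, 11.1 and 44.4%. The mitochondrial coactivator Ppargc1a, also a CREB target, rose by 1.55 ± 0.21 with adjusted p = 5.81e-06, the phosphatidate phosphatase Lpin1 fell by 1.61 ± 0.17 with adjusted p = 2.40e-07, and Pfkm and Gpd1 of glycolysis and glycerol metabolism fell by 0.50 ± 0.07 and 0.54 ± 0.11.

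In the DT comparisons within a feeding state and in the interaction, 0 of the 154 tested genes on these lists and the heat-shock list were called by edgeR. At an unadjusted p under 0.05 there were 10 in fasted mice, 20 in refed mice and 4 in the interaction, which is 6.49, 12.99 and 2.597% of these genes, beside 8.33, 10.03 and 7.14% of all tested genes. DESeq2 called 0, 1 and 0 of them, the 1 being Fosb in refed mice. In the DT average 2 of the 35 tested immediate-early genes were called, 2.86% higher and 2.86% lower, beside 0.206% of all tested genes in either direction. Fosb rose by 1.00 ± 0.20 and the G-protein regulator Rgs16 fell by 0.75 ± 0.15, each with edgeR's adjusted p = 0.0353. DESeq2 called both and also Fbp1, at −3.67, whereas voom called Rgs16, at −0.78, and gave Fosb an adjusted p of 0.0743.

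Over the 22 libraries, the genes with the pattern most like Nr4a1 in log2 CPM were Sik1 (Pearson r = 0.884, Spearman rho = 0.879), Crem (r = 0.855, rho = 0.895) and Mapre1, a microtubule end-binding gene (r = 0.854, rho = 0.862). With the group means removed, r was 0.660, 0.562 and 0.769. Most like Nr4a2 were Cdv3 (r = 0.933, rho = 0.911), the spermidine synthase gene Srm (r = 0.906, rho = 0.893) and Cdr2 (r = 0.884, rho = 0.890), with r of 0.721, 0.644 and 0.701 after removing group means. Nr4a1 and Nr4a2 were less like each other than that, with r = 0.715 and rho = 0.719, and 0.342 within groups. Nr4a2 was 315th among 14063 genes in likeness to Nr4a1. The libraries share the split by feeding, which enters every r over all 22, so these values are descriptions.

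Most of the listed heat-shock genes moved with feeding too. Of 11 tested, 8 rose with refeeding and 0 fell, 72.7% and 0%, beside 17.2% and 21.7% of all tested genes, with a median of 1.35. Hspa8, a constitutive chaperone, rose by 2.56 ± 0.18, Hsph1 by 2.75 ± 0.21, Hsp90aa1 by 1.79 ± 0.13 and the mitochondrial chaperone Hspd1 by 1.17 ± 0.08. The 3 not called were Hspa1a at −0.31 ± 0.31, Hspa1b at −0.10 ± 0.35 and Dnajb1 at 0.37 ± 0.24, so the list did not rise as a whole. Reads of Hspa8 and Hspd1 may be shared with near-identical copies. The summed heat-shock level was 1502 to 4339 CPM in refed DT mice and 2386 to 4782 in refed control mice, against 870 to 1190 in fasted DT mice and 790 to 1234 in fasted control mice, so the feeding states did not overlap. With the mean log2 CPM of these 11 genes, not their sum, as a covariate, the average refeeding difference was 1.38 for Nr4a1 and 2.06 for Nr4a2. Adjusted p by edgeR was 0.540 and 0.148. The count of called genes over the whole table then fell to 368, against 5470 without the covariate: heat-shock level and feeding cannot be told apart here. Within groups, r with the mean log2 CPM of the heat-shock genes was 0.257 for Nr4a1 and 0.147 for Nr4a2 (n = 22).

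Markers of other cells and the libraries that stood apart were set beside the result in the same way. Immune markers summed to 28.7 to 533 CPM in refed DT mice and 21.97 to 61.1 in refed control mice, against 41.1 to 444 in fasted DT mice and 25.7 to 219 in fasted control mice, and 12 of 14 passed the filter on low counts. With the immune sum as a covariate, the average refeeding difference was 2.51 for Nr4a1 and 2.50 for Nr4a2. Acinar markers summed to 92.0 to 44907 CPM in refed DT mice and 1602 to 26747 in refed control mice, against 132 to 20789 in fasted DT mice and 148 to 14646 in fasted control mice, and with them as a covariate the differences were 2.51 and 2.62. Without refed DT mice 13 and 20 they were 2.50 and 2.51. Nr4a1 was at 142 CPM in mouse 20, with an immune sum of 533 CPM, and at 140 CPM in refed control mouse 18, with an immune sum of 21.97 CPM. Of the 12 tested immune markers 1 fell with refeeding, 8.33%. Of 13 acinar, 5 duct, 3 endothelial, 2 stellate, 3 α-cell and 3 δ-cell markers 0 were called, of which 2 α-cell markers had an unadjusted p under 0.05 in edgeR. Their median changes were 1.24, 0.68, 0.795, 0.08, 0.28 and −0.67 in that order, beside −0.06 over all tested genes. The median acinar sum was 10257 CPM in refed DT and 13466 in refed control mice, against 2898 in fasted DT and 5371 in fasted control mice. So 0 calls do not show that these markers were alike between feeding states. The γ-cell marker Ppy rose by 1.52 on the log2 scale. Of 10 β-cell markers 3 rose and 2 fell, 30% and 20%, beside 17.2% and 21.7% of all tested genes.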

How the data were processed

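The authors deposited whole-number read counts per gene symbol, 1 column for each of 22 mice, with 0 columns of no sample. The submitters' processing notes name STAR (2.7.2b), HTSeq (0.9.1), DESeq2 (1.28.1) and the build GRCm38.p6. Settings, strand included, are not given in the sources used here. Per the labels' protocols, cDNA was amplified from low-input RNA and read single-end, and no molecular identifiers are named, so counting intervals cover counting error only.

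From these counts, edgeR 4.0.16 in R 4.3.3 fitted all 4 groups together (TMM scaling, filterByExpr by group, robust quasi-likelihood F tests, Benjamini-Hochberg adjustment over 14064 genes, threshold 0.05) for 7 comparisons. The script was tested on simulated data. Standard errors come from the F statistic. CPM per kb used exon lengths of GENCODE M21; promoters came from RefSeq. Log2 CPM used a prior count of 2. Nr4a3 was tested apart, as described with its counts. Genes named are the 3 members, the 3 genes most like Nr4a1 and Nr4a2 each (mean log2 CPM of at least 1), up to 4 called genes per list by smallest p, and the 3 highest other receptors. Members and lists were chosen with earlier results of these data known. Alternatives were DESeq2 1.42.0, limma 3.58.1 (voom), other scalings and filters, covariates and mice left out.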

Additional observations from a re-analysis of the deposited data

Results flagged for a closer look

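Nr4a1 in fasted control mouse 2 stood at 49.997 CPM, far from the other 4 fasted control mice, which had 8.67 to 13.6 CPM. In the same mouse Sik1 was at 7.10 CPM, against 0.750 to 2.97 CPM in the others, whereas Crem was at 12.3 CPM, inside their range of 11.96 to 15.1 CPM. Fos, at 57.6 CPM, and Egr1, at 82.8 CPM, were below the others, which had 94.5 to 179.5 and 110 to 140 CPM. These genes were picked out after their values were seen. Of 35 tested immediate-early genes other than the NR4A genes 6 had their highest fasted control value in this mouse, and of 20 cAMP and CREB genes 5 did. The share over all tested genes was not counted. If the 5 mice were alike, each would hold the highest value of about 1 gene in 5, so these counts mark no trait of this mouse. Its immune marker sum was 25.7 CPM, against 38.5 to 219 CPM in the other fasted control mice, and its heat-shock sum was 929 CPM, against 790 to 1234 CPM, and their part in the Nr4a1 value was not tested. Dixon's gap test flagged this Nr4a1 value, with a gap to the next mouse of 0.88 of the group's range, past the limit of 0.71. For normally distributed values, chance puts about 1 in 20 groups of samples past such a limit. The test was applied to other groups of the NR4A genes too, and only this value went past its limit.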

How the results depend on the processing

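Across the alternatives run, 202 of 202 refeeding effects of Nr4a1 and Nr4a2 were above 0, from 0.48 to 3.63. With heat-shock genes as a covariate, Nr4a1 had 0.48 in control mice. Nr4a2 had 2.47 in control mice, and in DT mice Nr4a1 had 2.29 and Nr4a2 1.65, with edgeR's adjusted p = 0.166, 0.300 and 0.275. The averages were 1.38 for Nr4a1 and 2.06 for Nr4a2. Genes called with refeeding then numbered 236 (control), 213 (DT) and 368 (average), against 3272, 3426 and 5470 without it. DESeq2 called Nr4a1 in control mice (1.67). For Nr4a3, DESeq2 gave 4.50 (control) and 5.48 (DT), and edgeR without the low-count filter 5.06 and 5.37, all under adjusted p 0.05. Fasted DT mice had 1 count and fasted control mice 0, so the sizes from both tools are poorly determined. Those of edgeR also depend on its prior count.

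Genes called between DT and control mice depended on the setting, beside 4 in fasted mice, 5 in refed mice, 1 in the interaction and 29 in the average. In fasted mice DESeq2 gave 54, RLE scaling 2, upper-quartile scaling 0, leaving out Ins1 and Ins2 2, no low-count filter 0, only the 2 groups 0, and leaving out refed DT mice 13 and 20 gave 26. In refed mice DESeq2 gave 94, voom 1, only the 2 groups 2, without mice 13 and 20 175, and immune and acinar covariates 13 and 9. The interaction had 20 with DESeq2, 0 with voom and 14 without these mice. The DT average had 188 with DESeq2, 19 with upper-quartile scaling, 8 without the filter and 123 without these mice. At an unadjusted p under 0.05 the 0 counts in fasted mice stood beside 1116, 2244 and 1546 genes by edgeR, and the 0 of voom beside 979. The cause was not tested.

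With 1 mouse left out, calls ranged from 0 to 19 (DT in fasted mice, 19 without refed DT mouse 13), 1 to 52 (DT in refed mice, 52 without refed DT mouse 20), 4 to 69 (DT average, 4 without refed control mouse 12 and 69 without refed DT mouse 20) and 1 to 2 (interaction, 2 without fasted DT mouse 6). Refeeding of Nr4a1 in control mice ranged from 1.01 to 2.47, Nr4a1 in refed mice from −0.071 to 0.92, the DT average of Nr4a2 from −0.03 to 0.31, and refeeding of Nr4a3 in DT mice from 0.344 to 0.631, the highest without refed DT mouse 13 with exact permutation p adjusted to 0.0173. No paired analysis was possible because the groups share no mouse numbers.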
